A study of Mus musculus with 12 samples.

Results

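Mouse chromosome 3 was measured by array comparative genomic hybridisation, in which tumour DNA and reference DNA are labelled with different dyes and compete for the same probes. Every probe placed on chromosome 3 by the array design was taken, which gave 2172 probes of 42404 on the array. They ran from position 3460322 to 159598032 of the mm9 build, over 156 Mb, with a median spacing of 23.9 kb. A gene name stood beside 1830 of them, for 1075 genes, and 342 had none. Values are log2 ratios of tumour over reference, centred on the median of all autosomal probes of the same array, so that 0 is the level of the middle autosomal probe and not a known copy number.

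The tumour DNA came from malignant peripheral nerve sheath tumours (MPNSTs) grown in culture from P0-GGFβ3 transgenic mice, whose Schwann cells make the growth factor GGFβ3, a form of neuregulin-1, under the promoter of the myelin protein gene P0. The reference was DNA of cultured non-neoplastic Schwann cells from wild-type C57BL/6J mice, and it was on every array. Of 11 tumours, A18, A202, A292, A382, A390, A394 and 231 Trig (7 tumours) arose in transgenic mice of C57BL/6J x SJL/J mixed strain, and B76, B86, B91 and B96 (4 tumours) in transgenic mice of pure C57BL/6J. Each tumour is 1 culture on 1 array, except A382, which was measured at passages 8 and 9 and averaged. Tumour cultures were begun with forskolin and NRG1β and then carried without them, whereas the reference cells were kept in both throughout. The ages of the mice, and whether all arrays shared 1 preparation of reference DNA, are not given in the sources used here. DNA ratios give no check of the cell type.

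An aneuploid tumour cell carries extra or missing copies of whole chromosomes or of arms and stretches of them, and a gain of a stretch raises the ratio of all its probes together. Mouse chromosomes have the centromere at one end, so that a chromosome is a single long arm. Chromosome 3 carries genes of the Ras, PI3 kinase and growth factor pathways that act in nerve sheath tumours, among them Nras, Pik3ca and Fgf2, and long tandem families such as the S100 calcium-binding proteins and the amylases. With 3 copies in every tumour cell against 2 in the reference the log2 ratio would be 0.58 in theory, and with 5 against 4 it would be 0.32. These arithmetic values assume pure tumour cells and an even ploidy, neither of which was measured.

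The probes at the edges of called stretches are shown first, because they give the positions on which the description of the chromosome turns. The following 4 probes flank the 2 changes of level that were called in A18. Each is a 60-base array probe in lower case as the scanner files give it, whose strand the files do not state.
S100a8 probe: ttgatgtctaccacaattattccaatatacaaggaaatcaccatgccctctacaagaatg
S100a9 probe: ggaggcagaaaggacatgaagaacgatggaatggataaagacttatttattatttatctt
Adgrl4 probe: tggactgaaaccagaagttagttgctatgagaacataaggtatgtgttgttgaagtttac
unnamed probe after Adgrl4: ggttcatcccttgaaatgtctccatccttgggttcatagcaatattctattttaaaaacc

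The S100a8 and S100a9 probes lie at chr3:90473501-90473560 and chr3:90496526-90496585. The Adgrl4 probe and the unnamed probe after it lie at chr3:151203978-151204037 and chr3:151273397-151273456. The genes S100a8 and S100a9 encode calcium-binding proteins of neutrophils, and Adgrl4 encodes an adhesion receptor of endothelial cells. Exon and intron positions of the probes were not analysed here.

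The next 4 probes flank a short low stretch that was called at the same edges in B91 and B96.
Fcrl5 probe: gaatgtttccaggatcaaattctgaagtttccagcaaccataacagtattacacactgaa
unnamed probe after Fcrl5: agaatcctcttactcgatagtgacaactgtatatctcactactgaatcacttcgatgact
S100a6 probe: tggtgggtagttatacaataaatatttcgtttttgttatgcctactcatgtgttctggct
S100a7a probe: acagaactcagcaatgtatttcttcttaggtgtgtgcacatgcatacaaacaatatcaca

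They lie at chr3:87284133-87284192 (Fcrl5, a receptor-like protein of B cells), chr3:87312124-87312183, chr3:90418294-90418353 (S100a6) and chr3:90461815-90461874 (S100a7a).

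The last set holds genes in which a probe departed from its surroundings on all or most arrays. Where such a gene has another probe, it is shown too, and the low AK088812 probe is not shown. Lmo4 is shown because it differed by strain background at the main setting, a call that ended in other settings.
Cpb1 probe: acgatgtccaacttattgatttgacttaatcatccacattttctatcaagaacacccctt
Veph1 near probe: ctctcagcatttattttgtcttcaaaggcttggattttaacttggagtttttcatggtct
Veph1 far probe: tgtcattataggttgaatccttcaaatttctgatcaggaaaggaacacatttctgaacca
Mlf1 near probe: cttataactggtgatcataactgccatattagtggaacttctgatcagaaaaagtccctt
Mlf1 far probe: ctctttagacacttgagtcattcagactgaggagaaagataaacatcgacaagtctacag
Fgf2 near probe: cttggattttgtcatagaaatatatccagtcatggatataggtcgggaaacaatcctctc
Fgf2 far probe: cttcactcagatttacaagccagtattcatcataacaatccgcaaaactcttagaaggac
Flg2 probe: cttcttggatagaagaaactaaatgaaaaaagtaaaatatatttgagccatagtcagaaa
Lmo4 probe: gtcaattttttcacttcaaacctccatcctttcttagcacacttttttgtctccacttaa

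The Cpb1 probe lies at chr3:20155623-20155682. The Veph1 probes lie at chr3:65963229-65963288 and chr3:66009547-66009606, and the Mlf1 probes at chr3:67178742-67178801 and chr3:67184603-67184662. The Fgf2 probes lie at chr3:37248607-37248666 and chr3:37259923-37259982, the Flg2 probe at chr3:93024898-93024957 and the Lmo4 probe at chr3:143863148-143863207.

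Chromosome 3 was clearly above the array centre in 3 tumours, slightly above it in another 2 and at the centre in the remaining 6. B76 had the highest median of chromosome 3 probes, 0.35, a linear ratio of 1.27. A18 followed at 0.23, a ratio of 1.18, and A390 at 0.20, a ratio of 1.15. A202 lay at 0.10 and A382 at 0.05. The medians of B96 (0.006), A292 (0.0008), 231 Trig (-0.005), A394 (-0.007), B86 (-0.02) and B91 (-0.02) lay within 0.03 of 0. The 2 passages of A382 gave the same level, 0.050 at passage 8 and 0.050 at passage 9. No median was as high as 0.58, and only that of B76 exceeded 0.32.

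The raised tumours were not raised by a few probes. In B76 93.8% of chromosome 3 probes were above 0, in A390 85.8% and in A18 84.6%, against 69.9% in A202 and 59.1% in A382. The other 6 tumours had 45.6% to 51.6%. Of 1075 genes, 1032 were above 0 in B76, 950 in A390 and 942 in A18. A further description uses medians of 1 Mb bins with at least 5 probes, of which chromosome 3 had 111. In B76 all 111 bins were above 0 and 106 reached 0.2. A18 had 110 bins above 0 and 68 at 0.2 or more, and A390 had 110 and 67. A202 had 106 bins above 0 but only 11 at 0.2 or more.

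**Figure D1:**
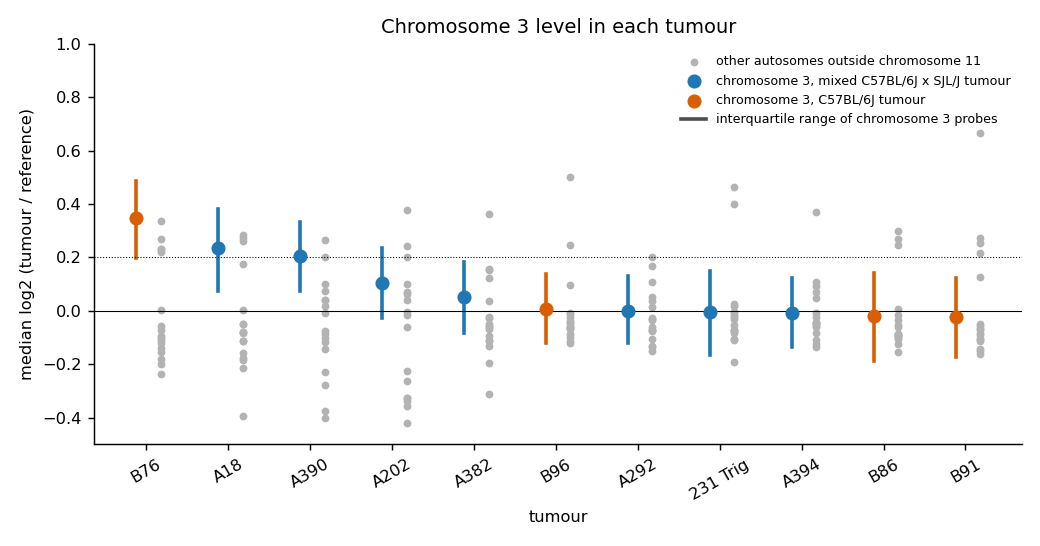
The plot gives the median log2 ratio of tumour over reference on chromosome 3 in each of 11 tumours (large points, coloured by strain background), the interquartile range of its probes (bars), and the medians of the other autosomes outside chromosome 11 (grey points). The dotted line marks 0.2. B76, A18 and A390 lie above it at 0.35, 0.23 and 0.20, and 6 tumours lie within 0.03 of 0.

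Over the 11 tumours the mean of the medians was 0.08 ± 0.13 (SD, n = 11), and 7 tumours were above 0. This mean did not pass the exact two-sided sign-flip permutation test, with p = 0.0586 and an adjusted p of 0.0974 (Benjamini-Hochberg over 19 autosomes). The smallest p the test can give is 0.000977. Of the 19 autosomes 7 passed, a share of 36.8%. Among each tumour's own 19 autosomes chromosome 3 ranked 2nd in B76, 3rd in A390 and 5th in A18, A202 and B96, where its median was 0.006. The arrays were run on 3 slides, of which slide 1 (A18, 231 Trig, B86 and A202) was read on another scanner. The mean within slides was 0.08, 0.06 and 0.12, and each slide held 1 of the 3 raised tumours. With slide as a block the mean was 0.08 (exact permutation test, adjusted p = 0.111). The call depended on where 0 was set. With the centre at the mode of autosomal probes, or at their median outside chromosome 11, which is raised on every array, the mean was 0.11 and passed in both (exact sign-flip permutation test, adjusted p = 0.00464).

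The signals of both dyes were also read apart, each adjusted for the GC content of the probes and centred on its array. The reference channel was -0.09 ± 0.006 on chromosome 3 (SD, n = 12 arrays), lower than on the other autosomes outside chromosome 11, which ran from -0.04 to 0.16. The tumour channel was 0.20 in B76, 0.09 in A390, 0.09 in A18 and -0.01 in A202. In the other tumours it lay between -0.16 and -0.09. The low reference level was thus on every array, including those with a ratio near 0, and its part in the ratios was not tested.

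Strain background did not separate the tumours. The mixed tumours had a mean median of 0.08 ± 0.10 (SD, n = 7) and the C57BL/6J tumours 0.08 ± 0.18 (SD, n = 4). The difference, mixed minus C57BL/6J, was 0.005 and did not pass the exact two-sided permutation test over 330 splits (p = 0.927, adjusted p = 0.970). None of 19 autosomes passed this test, 0%, and 1 had an unadjusted p under 0.05. The raised tumours came from both backgrounds, A18 and A390 from the mixed and B76 from C57BL/6J. Without B76 the difference was 0.09 (exact permutation test, adjusted p = 0.343). Within slides it was 0.13, 0.11 and -0.18, the last on the slide with B76.

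The cultures had been carried for different numbers of passages, from 5 in A394 to 13 in B76, with 11 in A18. These passages are those of the sample titles, and those of B76, A18, B91 and 1 of the A382 arrays are above the upper limit of 8 in the growth notes, a difference that the labels do not settle. Over the 10 tumours with a passage in the title, chromosome 3 medians had a Pearson r of 0.69 with passage (permutation p = 0.0268) and a Spearman rho of 0.43 (permutation p = 0.210). This was the only relation tested against passage. Without B76 and A18, the 2 tumours of highest passage, r was -0.12 (exact permutation p = 0.788), and without B76 and A394, which are among those farthest from the median passage (A394 and A18 are equally far), it was 0.31 (exact permutation p = 0.450). Without B76 alone r was 0.39 (exact permutation p = 0.293), so the relation did not pass without B76. A18 was not left out by itself. A390, the other raised tumour, was at passage 7.

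To place changes of level along the chromosome, each tumour was divided into segments by penalised least squares, and a segment was called gained at a mean of 0.2 or more and lost at -0.2 or less. A tumour was called raised on a chromosome where gained segments covered at least 25% of its probes. On chromosome 3 this gave A18, A390 and B76, 3 of 11 tumours, with 0 lowered and no segment called lost. Single probes far from their neighbours were limited before this step. Without that limit the same 3 tumours were raised, and short segments were called lost in 5 tumours, all of the mixed background. The remaining mixed tumours, A18 and A292, and the C57BL/6J tumours had none. The reference is C57BL/6J, and the part of strain background in these segments was not tested. The 5 probes from Clca3a2 to Clca3b, in a cluster of chloride channel accessory genes, were at -1.18 in both 231 Trig and A202 and at -0.74 in A390. In A390 5 probes from Tuft1 to BC108378 were at -0.67. The other 2 tumours were A382 and A394, at Veph1 to Mlf1, in a segment that begins and ends on single low probes described below. Over all autosomes 41 of 209 pairs of tumour and autosome were raised, 19.6%. Chromosome 11 was raised in 11 tumours, 17 in 5, 6 and 15 in 4, and chromosomes 1, 19 and 3 in 3 each. On chromosome 11 the reference channel averaged -0.53 and the mean of the tumour medians was 0.69. The part of the reference in these calls, which are among the 41 pairs, was not tested.

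In B76 and A390 the whole chromosome formed 1 segment, at 0.34 in B76 and 0.20 in A390. A390 was just inside the threshold at 0.202. The nearest values outside it were 0.17 in the first and 0.11 in the last segment of A18 and 0.10 in A202, whose chromosome 3 was also 1 segment. A382 was 1 segment at 0.05. The call on A390 ended under mode centring (0.198), after GC correction (0.199) and when the median of the other tumours was subtracted from each probe (0.16). With a threshold of 0.3 only B76 was called.

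A18 differed from the other raised tumours by having 2 breaks. Its first segment, from 3460322 to 90473560, held 1006 probes at 0.17. The second, from 90496526 to 151204037, held 1042 measured probes at 0.29. The third, from 151273397 to 159598032 at the far end, held 117 probes at 0.11. The step up at S100a8 and S100a9 was 0.12 and the step down after Adgrl4 was 0.18, both smaller than the spread of single probes in A18 (0.23). Medians of the 50 probes on each side were 0.16 and 0.31 at the first break and 0.30 and 0.11 at the second. Positions inside an approximate 95% likelihood interval ran from 90418294 to 92554292 for the first break, 2.14 Mb, and from 148887207 to 151474966 for the second, 2.59 Mb. The 4 edge probes had values of -0.30 (S100a8), 0.42 (S100a9), 0.35 (Adgrl4) and 0.18 (the unnamed probe) in A18. In B76 the same probes had 0.24, 0.37, 0.44 and 0.46, with no fall after Adgrl4. A low S100a8 probe beside a higher S100a9 probe was not particular to A18. The values were -0.36 and 0.17 in A202, -0.34 and 0.13 in 231 Trig and -0.27 and 0.06 in A292, where no break was called. In B86 (0.25 and 0.10) and A394 (0.06 and 0.04) S100a9 was the lower.

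The same 3 portions were compared in all tumours. In A18 the medians were 0.18 before, 0.29 between and 0.12 after the breaks. In B76 they were 0.33, 0.36 and 0.38, in A390 0.19, 0.21 and 0.23, and in A202 0.10, 0.11 and 0.10. The middle portion exceeded the first by 0.11 in A18, and by 0.005 (A202) to 0.03 (B76) in the other 10 tumours, where the mean excess was 0.02 ± 0.009 (SD, n = 10). It exceeded the last portion by 0.18 in A18. In the other 10 tumours this difference ran from -0.05 (B91) to 0.05 (231 Trig). The portions were set by the breaks of A18, so its own steps are a description. A small excess of the middle over the first portion was thus present in every tumour. The first portion includes the short low stretch called in B91 and B96. Before that stretch the mean over all tumours was 0.08, against 0.07 in the whole first portion and 0.09 in the middle portion. In A202, A390, A292, B91 and B96 the median before that stretch was above that of the middle portion, and in the other tumours below it.

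**Figure D2:**
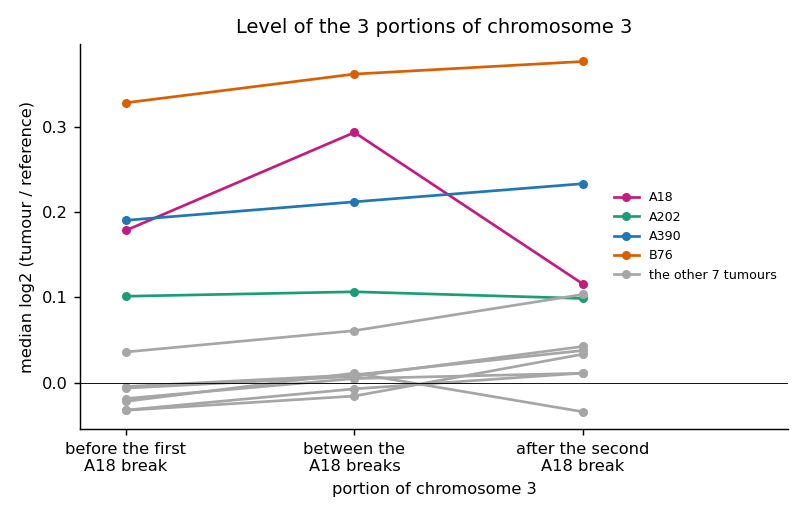
The plot gives the median log2 ratio of tumour over reference in the 3 portions of chromosome 3 set by the A18 breaks, with 1 line for each of 11 tumours. A18 goes from 0.18 to 0.29 to 0.12, while B76, A390 and A202 change by at most 0.05 between any 2 portions.

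The stretch inside gained segments of all 3 raised tumours was the middle segment of A18, from 90496526 (S100a9) to 151204037 (Adgrl4), 60.7 Mb. It held 1049 probes, 48.3% of those on the chromosome, and 536 genes. Its medians were 0.36 in B76, 0.29 in A18 and 0.21 in A390, and 0.33, 0.17 and 0.20 on the rest of the chromosome. A202 had 0.11 in it and A382 0.06, and the other 6 tumours ran from -0.02 (B91) to 0.01 (231 Trig). Since B76 and A390 were gained along the whole chromosome, every one of the 2172 probes was gained in at least 2 tumours, and the edges of the stretch are those of A18 alone. Without A18 the stretch was the whole chromosome. At a threshold of 0.15 the first segment of A18 was gained too and the stretch reached 148 Mb. When isolated probes were not limited it was 49.8 Mb (94588729 to 144407650). After the median of the other tumours was subtracted from each probe, A18 and B76 were raised, and their shared stretch ran from 93485489 to 152135377, 58.6 Mb.

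Besides chromosomes 3 and 11, the raised autosomes in B76 were 6, 8, 15, 17 and 14, in A18 7, 17 and 6, and in A390 17 and 15. Chromosome 17 was thus raised in all 3, and also in A394 and B91, whose chromosome 3 was at the centre. A202, next in level on chromosome 3, was raised on 12 and 5.

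**Figure D3:**
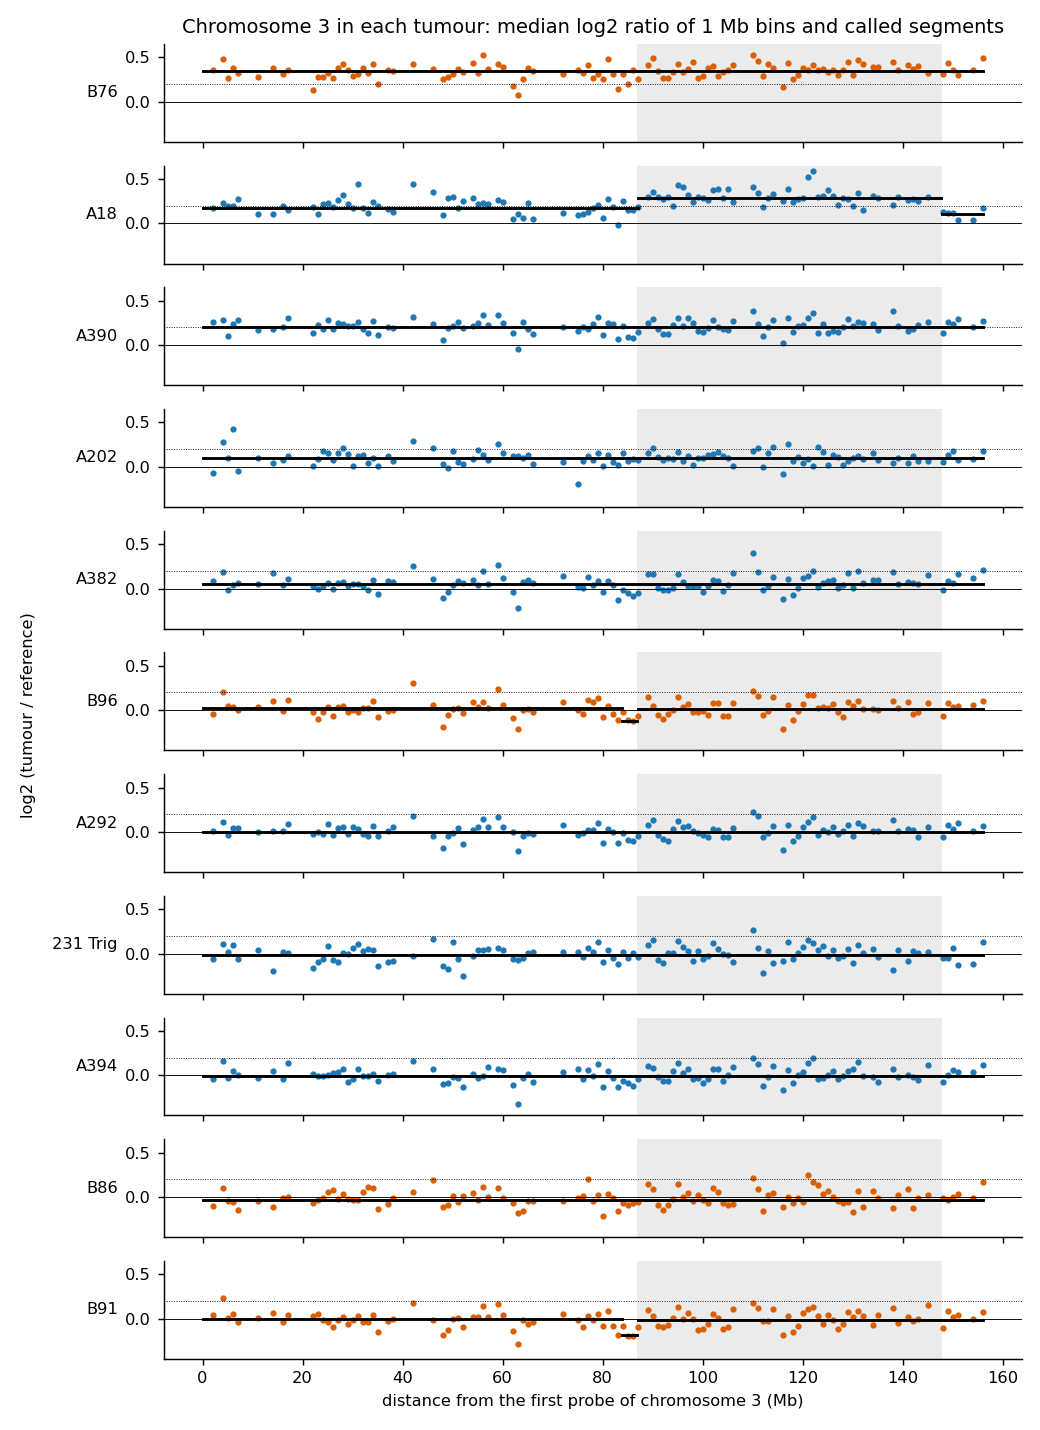
The plot follows each tumour along chromosome 3, with median log2 ratios of 1 Mb bins (points) and called segments (black lines) against distance from the first probe. The grey band is the 60.7 Mb shared by the raised tumours and the dotted line marks 0.2. B76 and A390 are level along the chromosome, A18 has a higher middle segment at 0.29, and B91 and B96 have a short low segment just before the band.

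The other 4 of 6 breaks on the chromosome bounded a low segment in B91 and B96, called with the same edges in both. Breaks depended on the penalty of the segmentation. At a penalty of 80 noise variances in place of 40, the first A18 break was the only 1 left and the shared stretch ran on to the far end, 69.1 Mb. At 20 there were 26 breaks, and A382, A394, A292, A390 and B76 also had a segment overlapping this low region that was below both its neighbours. The low segment of B91 and B96 ran from 87312124 to 90418353, with 184 probes from Etv3, a transcriptional repressor gene, to S100a6. Its means were -0.18 in B91 and -0.12 in B96, short of the threshold for a loss. Its median was below that of the rest of chromosome 3 in 11 of 11 tumours, from -0.17 in B91 to -0.02 in A202, with a mean of -0.10 ± 0.04 (SD, n = 11). This stretch is gene-dense, with 108 gene names, and its probes averaged 37.2% GC against 35.6% on the whole chromosome. After correction for GC the mean difference was -0.09 ± 0.04 (SD, n = 11). The reference channel there was 0.10, against -0.16 before it and -0.07 after it, and its part in the dip was not tested. The right edge of the dip, at S100a6 and S100a7a, lies 78.2 kb before the first break of A18. After the median of the other tumours was subtracted from each probe, the first break of A18 moved to 93485489, at Them4.

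The profile along the chromosome had a part common to all arrays. The Spearman correlation of a tumour's bins with the mean of the other tumours ran from 0.44 in A18 to 0.85 in B96 over 111 bins. This is a description, since the arrays share the reference and the probes. The bins of A382 at its 2 passages had a Pearson r of 0.88 and a median absolute difference of 0.03.

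When bins were tested over all tumours with limma, 38 of 111 chromosome 3 bins rose (mean of at least 0.1, adjusted p under 0.05) and 0 fell. The shares over all autosomes were 16.5% that rose and 17.4% that fell, and 11.6% rose outside chromosome 11. One chromosome 3 bin was lower at an unadjusted p under 0.05, and 55 were higher. The bins that rose were spread along the chromosome, with 17 of 56 before the first A18 break, 19 of 49 between the breaks and 2 of 6 after them. Of 111 bins 23 were above 0 in all 11 tumours. The count fell to 22 without slide 1 and to 2 in the 4 C57BL/6J tumours alone.

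The highest bin, at 113 to 114 Mb, held Amy1, an amylase gene, with Rnpc3 and Col11a1, a collagen gene. Its values ran from 0.18 in B91 through a median of 0.23 to 0.52 in B76, with a mean of 0.29 ± 0.12 (SD, n = 11, limma adjusted p = 2.6e-05). All 11 tumours were above 0 there, including those whose chromosome 3 median was at 0. The next highest were at 45 to 46 Mb with the protocadherin gene Pcdh10 (0.24 ± 0.14, SD, n = 11) and at 125 to 126 Mb with Ugt8a (0.23 ± 0.16, SD, n = 11), where A18 reached 0.59. The lowest bin, at 66 to 67 Mb with Veph1 and the homeobox gene Shox2, had a mean of -0.11 ± 0.16 (SD, n = 11) and did not pass (limma adjusted p = 0.0738). It ran from -0.32 in A394 to 0.12 in A202.

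At the level of genes, 209 of 1075 chromosome 3 genes rose against the reference (limma, mean of at least 0.2, adjusted p under 0.05 over all autosomal genes) and 44 fell. These are 19.4% and 4.09%. Over all 19984 autosomal genes the shares were 18% and 15.5%, and outside chromosome 11 11.4% rose. The median gene mean was 0.07 on chromosome 3 and -0.008 over all autosomes. Of the 209 that rose, 159 were above 0 in all 11 tumours, 115 lay among the 536 genes of the shared stretch, and 114 rested on a single probe. With each probe replaced by the running median of 5 neighbours, 104 genes rose and 2 fell, of which 62 and 1 were called in both ways.

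Genes with high means were Flg2 and AY158991 of the epidermal gene cluster, M63697, Hjv, Pifo and Fgf2. Flg2, which encodes the skin protein filaggrin-2, ran from 0.16 in B86 through a median of 0.58 to 1.06 in B76, with a mean of 0.62 ± 0.23 (SD, n = 11, limma adjusted p = 6.5e-07). All 11 tumours were above 0 at this probe. Hjv, the hemojuvelin gene of iron control, had a mean of 0.54, M63697 0.56 and AY158991 0.52. Pifo, a gene of the primary cilium, had a mean of 0.52 ± 0.36 (SD, n = 11), with 1.53 in A18 and 0.20 to 0.74 in the other tumours. The running median of 5 probes gave 0.12 at Flg2, 0.05 at Hjv, -0.04 at M63697, 0.24 at AY158991 and 0.38 at Pifo, and the calls on Flg2, Hjv and M63697 ended.

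Fgf2, which encodes basic fibroblast growth factor, a mitogen for Schwann cells, rose by 0.47 ± 0.12 (SD, n = 11, limma adjusted p = 1.4e-07). The lowest tumours were B96 and A382 at 0.35, the median was 0.43 and the highest was B76 at 0.69. Its 2 probes disagreed. The far probe had a mean of 0.78 ± 0.17 and the near probe, 11 kb away, 0.16 ± 0.15 (both SD, n = 11). At the far probe all 11 tumours lay between 0.53 and 1.05, and at the near probe between -0.06 and 0.43, so the ranges did not overlap. With the running median the mean at Fgf2 was 0.09 and the call ended.

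The lowest means were those of Cpb1, AK088812, Veph1, Mlf1 and AK032898. Cpb1, a pancreatic carboxypeptidase gene with 1 probe, ran from -2.40 in B86 through a median of -1.71 to -0.48 in A202. Veph1 had a mean of -0.998 ± 0.412 (SD, n = 11, limma adjusted p = 7.8e-07), carried by its far probe, at -1.86 ± 0.77, while the near probe, 46 kb away, was at -0.14 ± 0.14 (SD, n = 11). Mlf1, named for myeloid leukaemia, had a mean of -0.77 ± 0.34 (SD, n = 11, limma adjusted p = 2.0e-06), with -1.53 ± 0.61 at the near probe and -0.01 ± 0.16 at the far probe 5.9 kb away. At the low probe of Mlf1 the tumours ran from -2.30 in B86 to -0.29 in A202, and at the far probe of Veph1 from -2.75 in B86 to -0.43 in A202. AK088812, a cDNA with 1 probe, had a mean of -1.09 ± 0.53 (SD, n = 11), from -1.85 in B86 to -0.16 in A18.

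These 4 single low probes lie up to 86.7 Mb apart, and B86 was the lowest tumour at each of them. A202 was the highest at Cpb1, Veph1 and Mlf1, and A18 at AK088812. In all 4 the tumour channel was below the reference channel, as a negative ratio implies, and which channel departed was not tested. At Cpb1 the reference channel averaged -0.48 and the tumour channel -2.18, and at the low Mlf1 probe -0.66 and -2.30. At the far Mlf1 probe, whose mean ratio was -0.01, they were -2.18 and -2.22. All of these probes were well above background on every array. Segments were called with isolated probes limited, so they could not follow a single probe. Without that limit the 10 probes from the far Veph1 probe to the low Mlf1 probe formed a segment at -0.51 in A382 and -0.55 in A394. These means include the low probes at both ends of the segment. The far Veph1 and low Mlf1 probes were at -2.50 and -2.06 in A382 and at -2.29 and -1.87 in A394. Smoothed over 5 probes by the running median the gene means were 0.09 at Cpb1, 0.28 at AK088812, -0.002 at Veph1 and -0.05 at Mlf1. The probes were named by their rank among the means, so their low level is a description of these arrays.

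**Figure D4:**
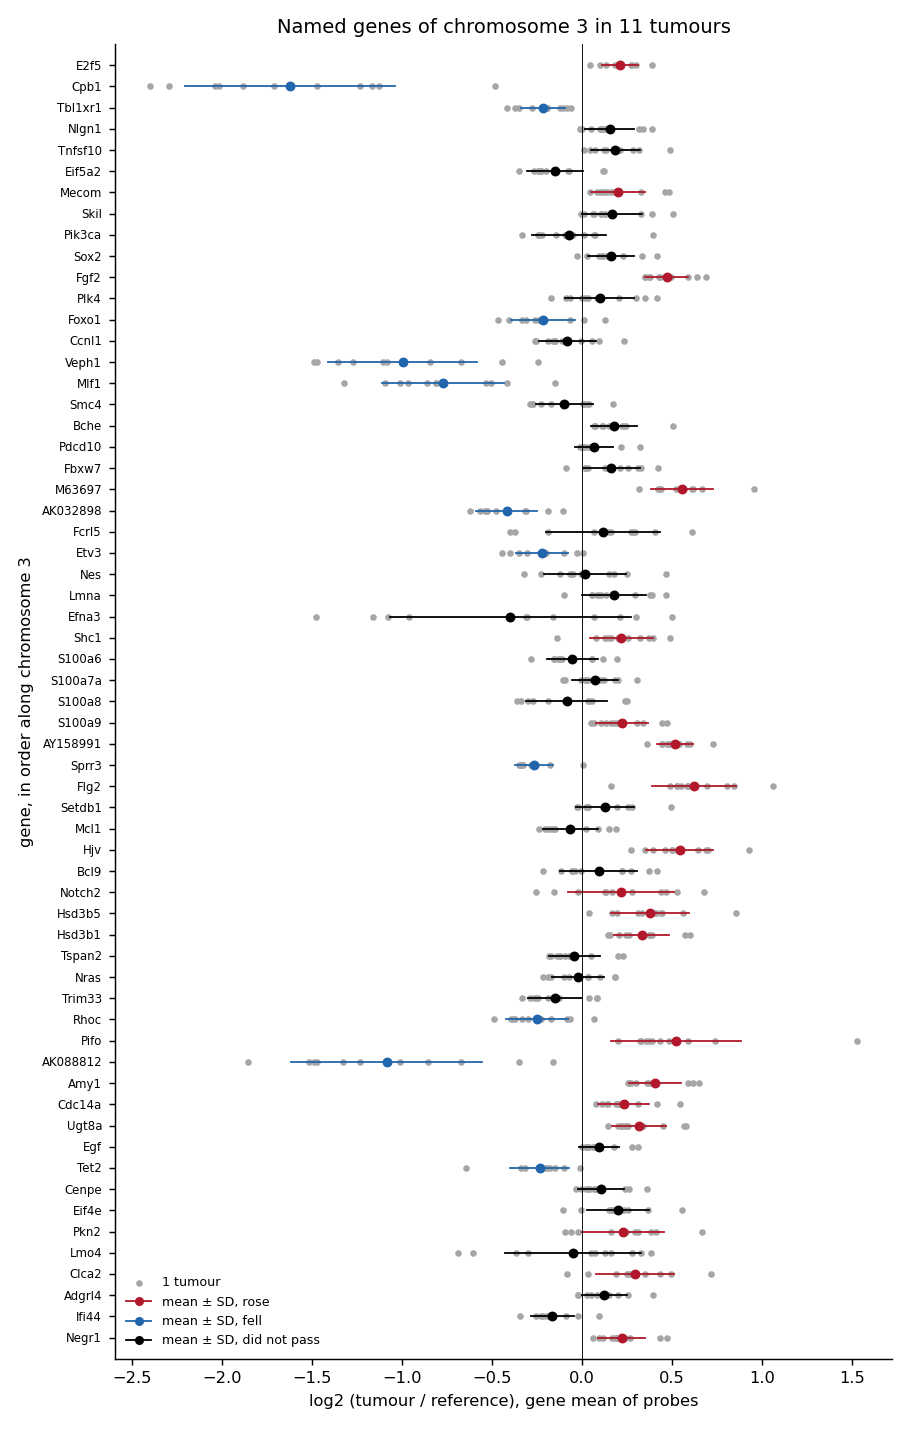
The plot gives log2 ratios of the named genes in order along chromosome 3, with 1 grey point for each of 11 tumours and the mean ± SD in red (rose), blue (fell) or black (did not pass). Cpb1, Veph1, Mlf1 and AK088812 stand alone at means of -0.77 or less, and most other genes lie within 0.5 of 0.

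Of 26 listed growth factor, receptor and Ras, MAPK or PI3 kinase genes, 23 were measured, and 3 rose, 1 fell and 19 did not pass. These are 13% and 4.35% of the list, against 19.4% and 4.09% of all chromosome 3 genes and 18% and 15.5% of all autosomal genes. The list median was -0.02, against 0.07 over all chromosome 3 genes. In B76 21 of the 23 were above 0 with a median of 0.21, in A18 22 with 0.21 and in A390 18 with 0.12. Besides Fgf2, the genes that rose were Shc1 (0.22), an adaptor between receptor kinases and Ras, and Pkn2 (0.23), a serine/threonine kinase. Rhoc, a small GTPase gene, fell (-0.25). None of these 4 was called with the running median. Shc1 was below 0.2 without B91 (0.19), without slide 1 (0.19) and after GC correction (0.19), and Pkn2 without B76 (0.18).

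Nras, a Ras GTPase gene, had a mean of -0.02 ± 0.14 (SD, n = 11, limma adjusted p = 0.701). Its values were 0.18 in A390, 0.18 in A18 and 0.10 in B76, and -0.22 to 0.04 in the other 8 tumours. The 3 raised tumours were the highest at this probe, at levels below their chromosome medians. Pik3ca, which encodes the catalytic subunit of PI3 kinase, had a mean of -0.07 ± 0.21 (SD, n = 11, limma adjusted p = 0.308), with 0.39 in A18, 0.07 in B76 and 0.01 in A390. Egf (0.09), which encodes epidermal growth factor, did not pass. Eif4e, a translation initiation factor gene downstream of mTOR, was just under the size minimum at 0.199 ± 0.173 (SD, n = 11, limma adjusted p = 0.00424). It was 0.56 in B76, 0.37 in A390 and 0.17 in A18.

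Efna3, which encodes a ligand of Eph receptors, spread most among the listed genes, with a mean of -0.40 ± 0.67 (SD, n = 11, limma adjusted p = 0.0516). The 4 tumours of slide 1 lay above 0, at 0.50 (A18), 0.30 (A202), 0.21 (231 Trig) and 0.07 (B86), and the 7 tumours of the other slides below 0, from -1.48 (A292) to -0.16 (A390). The groups did not overlap, and how many other genes divide by slide in this way is not given here. Without slide 1 the mean was -0.78 (limma adjusted p = 0.00267), and with slide as a block -0.47 (limma adjusted p = 0.00511). Efna3 has 1 probe, and slide and tumour cannot be told apart at it.

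Of 28 genes listed as oncogenes or amplified in cancers, 26 were measured, and 2 rose (7.69%, against 19.4% of chromosome 3 genes), 1 fell and 23 did not pass, with a median of 0.02. In B76 24 of 26 were above 0 with a median of 0.29, and in A18 23 with 0.23. Notch2, a receptor that sets cell fate, rose by 0.22 ± 0.29 (SD, n = 11, limma adjusted p = 0.0268). It was 0.68 in B76 but also 0.53 in B96 and 0.47 in B91, whose chromosome 3 was at 0, and -0.26 in 231 Trig. The call ended without A390 (0.19, limma adjusted p = 0.0619), B91, B96 or B76. Mecom, a transcription factor gene of leukaemia, rose by 0.20 ± 0.15 (SD, n = 11, limma adjusted p = 0.00216) and fell below the size minimum without A18 (0.18), A390 (0.19) or B76 (0.17) and without slide 1 (0.19). Tbl1xr1, a corepressor gene, fell (-0.22). It was -0.20 without 231 Trig, short of the size minimum. Notch2, Mecom and Tbl1xr1 were not called with the running median (0.15, 0.09 and -0.17). Sox2 (0.16), Skil (0.17), Setdb1 (0.13), Bcl9 (0.09), Mcl1 (-0.07) and Eif5a2 (-0.15) did not pass. Sox2, a transcription factor of immature Schwann cells, was 0.42 in B76, 0.33 in A390 and 0.23 in A18.

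Of 14 cell cycle and mitosis genes, 10 were measured and 2 rose, a share near the 19.4% of chromosome 3 genes, with a median of 0.07. Cdc14a, a mitotic phosphatase gene, rose by 0.23 ± 0.14 and E2f5, a cell cycle transcription factor gene, by 0.21 ± 0.10 (both SD, n = 11, limma adjusted p = 0.000518 and 0.000267). Both were above 0 in 11 of 11 tumours, and both calls ended without B76 (0.20 and 0.19). They also ended with the running median (0.15 and 0.11). Plk4 (0.10), Cenpe (0.10), Smc4 (-0.10) and Ccnl1 (-0.08) did not pass. In B76 and A390 all 10 genes were above 0, with medians of 0.36 and 0.24.

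Of 13 tumour suppressor and cell death genes, 11 were measured, with a median of -0.02. In limma 0 rose and 2 fell, 0% and 18.2% of the list. The shares were 19.4% and 4.09% over chromosome 3 genes and 18% and 15.5% over all autosomal genes. At an unadjusted limma p under 0.05, 2 of the list were higher and 3 lower. Tet2, a DNA demethylase gene, fell (-0.24 ± 0.16, SD, n = 11, limma adjusted p = 0.000912), with -0.64 in B86, and was at -0.19 without B86. Foxo1, a transcription factor gene restrained by Akt, fell (-0.22 ± 0.18, SD, n = 11, limma adjusted p = 0.00241), and was -0.20, short of the size minimum, without 231 Trig. Both means were -0.02 with the running median. Of 25 alternatives the call ended in 6 for Tet2 and in 7 for Foxo1. Fbxw7, which encodes the ubiquitin ligase subunit for cyclin E and Myc, was 0.16 ± 0.16 (SD, n = 11) and did not pass, with 0.42 in B76, 0.33 in A18 and 0.26 in A390. Tnfsf10 (0.18), Pdcd10 (0.07) and Trim33 (-0.15) did not pass. In B76 and A18 10 of the 11 were above 0.

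Of 19 Schwann cell, nerve and neural crest genes, 16 were measured, with a median of 0.06, and 2 rose, 12.5% against 19.4% of chromosome 3 genes. Both were also called with the running median. Ugt8a encodes the enzyme that makes the galactolipids of myelin. It ran from 0.15 in 231 Trig through a median of 0.24 to 0.58 in B76, with 0.57 in A18, and its mean was 0.31 ± 0.15 (SD, n = 11, limma adjusted p = 4.2e-05). All 11 tumours were above 0. Negr1, a neuronal adhesion gene beyond the second A18 break, rose by 0.22 ± 0.13 (SD, n = 11, limma adjusted p = 0.000543). It was 0.47 in B76 and 0.43 in A390 but 0.10 in A18, and was below 0.2 without A390 (0.196) or B76 (0.19). Lmna (0.18), Nlgn1 (0.15), Bche (0.18), Nes (0.02) and Tspan2 (-0.04) did not pass. Bche, a cholinesterase gene, was highest in A202 at 0.51. In B76 and A390 all 16 genes were above 0.

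Of 52 members of tandem gene clusters, 32 were measured, with a median of 0.05, and 10 rose and 2 fell. These are 31.2% and 6.25% of the list, against 19.4% and 4.09% of chromosome 3 genes and 18% and 15.5% of autosomal genes, a difference that was not tested. With the running median 6 of the list rose. The clusters share near-identical copies, so a probe may read several of them. Amy1 rose by 0.41 ± 0.15 (SD, n = 11, limma adjusted p = 2.3e-06), from 0.26 in A394 through a median of 0.37 to 0.65 in B76. The steroid dehydrogenase genes Hsd3b5 and Hsd3b1 rose by 0.38 ± 0.22 and 0.33 ± 0.15 (both SD, n = 11) and were above 0 in 11 of 11 tumours. Clca2, of the chloride channel accessory family, rose by 0.29 ± 0.22 (SD, n = 11), and S100a9 by 0.22 ± 0.15 (SD, n = 11), the latter below the size minimum without B76 (0.196). Sprr3, of the small proline-rich family of the skin, fell (-0.27 ± 0.11, SD, n = 11) and was near 0 (0.008) only in B76. Of the S100 genes at the breaks, S100a8 (-0.09), S100a6 (-0.05) and S100a7a (0.07) did not pass. Of the other genes at the breaks Etv3 fell (-0.22, limma adjusted p = 0.00081), while Fcrl5 (0.12), Adgrl4 (0.12) and the interferon-induced gene Ifi44 (-0.17) did not pass.

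1 probe at the left edge of the dip split the tumours. At this Fcrl5 probe, printed above, A202 (-1.31), A292 (-1.06) and A390 (-0.93) lay far below the other 8 tumours, which ran from -0.06 (A394) to 0.69 (B76). The 3 low tumours are of the mixed background, and the other 4 mixed tumours were not low. The second Fcrl5 probe brought the gene means of these tumours to -0.40, -0.37 and -0.19.

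By strain background, 1 of the chromosome 3 genes passed in limma, Lmo4, which was named after its values were seen. The share over all autosomal genes was 0.015%, and 33 chromosome 3 genes had an unadjusted p under 0.05. Lmo4 encodes a LIM-domain transcription cofactor. Its values were 0.38 (A18), 0.33 (A292), 0.28 (A382), 0.16 (A202), 0.13 (A394), 0.07 (A390) and 0.05 (231 Trig) in the mixed tumours. In the C57BL/6J tumours they were -0.30 (B76), -0.37 (B86), -0.61 (B96) and -0.69 (B91). The groups did not overlap, and the mean was 0.69 higher in the mixed tumours (limma adjusted p = 0.0233). The call ended without B86, A202, B91, A292 or B96, without slide 1, with slide as a block and under mode centring. B76, raised along the whole chromosome, was below 0 at this single probe. No chromosome 3 bin differed by strain background in limma, and 0 of 111 had an unadjusted p under 0.05. The share over all autosomal bins was 0%.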

How the data were processed

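Genomic DNA of 11 tumours was hybridised on 12 two-colour Agilent arrays, tumour in Cy5 and reference in Cy3, per the labels' protocols. The deposited log10 ratios, red over green, were made with Agilent Feature Extraction 9.5 on build mm9, per the submitters' processing notes, from background-subtracted, dye-normalised intensities (per the file headers). They were converted to log2, spots flagged as non-uniform or outliers were set to missing (0.060% to 1.99% of spots per array), spots of a probe were averaged and each array was centred on its autosomal median. The deposited intensities of both dyes were used for the channel values. Noise between neighbouring probes was 0.18 to 0.25. At least 99.4% of chromosome 3 probes were well above background on every array, and the number of arrays limits the precision.

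Chromosome medians were tested with exact permutation tests in Python 3.11.15. Genes (mean of their probes) and 1 Mb bins were tested with limma 3.58.1 over all autosomes, with Benjamini-Hochberg adjustment. Segments used a penalty of 40 noise variances and at least 5 probes, and any probe more than 3 noise SD from the running median of 5 was brought to that limit. Tests and segmentation were checked on simulated data. Gene names are those of the array, of which 223 probes were renamed through RefSeq. Named genes were the 5 highest and 5 lowest that passed, those at breaks, up to 6 of each list and a set of fixed genes, some of which are not reported here and of which Ccna2, Cks1b and Pmp2 were not measured. The chromosome, gene lists and tests were chosen with earlier results of these data known. Replicates are separate tumours, so p-values measure the spread between tumours against 1 reference. Tried alternatives covered centring, background correction, loess, GC correction, spot filters, slides, left-out tumours, A382 passages, strain, bin size, thresholds and segmentation settings.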

Additional observations from a re-analysis of the deposited data

Results flagged for a closer look

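B76 stood apart from the other C57BL/6J tumours on chromosome 3 in 3 measures, by Dixon's test at the 95% level. Its median was 0.35, against -0.02 to 0.006 in B86, B91 and B96. Its median in the stretch shared by the raised tumours was 0.36, against -0.02 to 0.009 in those tumours. B76 itself was among the raised tumours that define this stretch, so the flag there is a description. Its share of probes above 0 was 93.8%, against 45.6% to 51.6%. Chance flags about 1 in 20 groups, the 3 measures come from the same probes, and none of the 3 set a mixed tumour apart.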

How the results depend on the processing

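Alternatives marked here as added were chosen after the data were seen: within-slide means, passage without B76, and segmentation without slide 1, after GC correction or after subtracting the other tumours. The mean chromosome 3 level kept its sign in all alternatives (0.05 to 0.12). It passed with mode centring (0.11) and with centring outside chromosome 11 (0.11). The cause of the change with the mode was not tested, and leaving chromosome 11 out of the centre raises every other autosome by construction. Leaving out each tumour gave 0.05 to 0.09, none of which passed. The relation with passage was -0.12 without B76 and A18, 0.31 without B76 and A394, and 0.39 without B76. Genes that rose numbered 118 in C57BL/6J tumours only (fewer samples), 104 with the running median of 5 probes and 375 at a size minimum of 0.1, and genes that fell 24, 2 and 104. The strain call on 1 gene was 0 with mode centring, without slide 1 and with slide as a block, and 0 to 1 with a tumour left out. Bins that rose numbered 22 without slide 1, 2 in C57BL/6J tumours only, 8 with 5 Mb bins (fewer bins) and 7 at a size minimum of 0.2. Bins that fell numbered 1 with loess within arrays, after GC correction and without slide 1, and 0 to 1 with a tumour left out. The tumours raised numbered 1 at a threshold of 0.3, and 2 to 3 with a tumour left out. The shared stretch was 2172 probes at thresholds of 0.1 and 0.3, at 50% of probes and without slide 1, 2055 at 0.15 and with mode centring, and 1049 to 2172 with a tumour left out. With the running median 5 of the named genes that rose or fell changed sign: Cpb1 (0.085), M63697 (-0.039), Etv3 (0.0051), Shc1 (-0.021) and AK088812 (0.28). Some named genes that had not passed changed sign too. No paired analysis was possible because the labels give the strain groups no shared replicate numbers. Steps of about 0.1 are smaller than the noise of single probes, and approximate 95% intervals of break positions ran from 0.190 Mb (right edge of the dip in B91) to 2.59 Mb (second break of A18), while 1 array per tumour gives single tumours no error of their own.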
